A study of Mus musculus with 8 samples.

Results

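The DNA replication machinery was followed in mouse pre-B cells through 48 genes, chosen by gene name from the arrays' annotation, out of 21320 genes and annotated features tested. They comprised 6 subunits of the origin recognition complex, 3 licensing factors, 6 subunits of the MCM helicase, 8 genes of helicase activation, 9 of the polymerases and primase, 9 of the sliding clamp, its loader and RPA, 2 of Okazaki fragment joining and 5 of dNTP supply. All 48 had a probe, and the probe that stood for each gene was well above background on each of the 8 arrays. The cells were wk3, a pre-B cell line of genotype SLP-65-/- that grows in IL-7, a cytokine on which growth of early B cell precursors depends. All 8 cultures had been infected with a retroviral vector and selected with puromycin. A sponge RNA carries repeated sites for a microRNA and competes with its usual targets for it. The 4 groups were cells with a miR-15 sponge kept 36 h without IL-7, cells with a miR-15 sponge in excess IL-7, cells with a scrambled sponge kept 36 h without IL-7, and cells with a scrambled sponge in excess IL-7. Each group had 2 arrays, from 2 independent experiments with separately made clones, and all groups lack SLP-65, so no group stands for a cell with that adaptor. The study asked how lower activity of the miR-15 family changes gene expression in growing cells and in cells that differentiate after IL-7 is withdrawn.

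A chromosome is copied once per cell cycle. The origin recognition complex (Orc1 to Orc6) marks the start sites, and Cdc6 and Cdt1 load the ring-shaped helicase Mcm2 to Mcm7 there, a step that geminin (Gmnn) blocks by binding Cdt1. The kinase Cdc7 with its activator Dbf4, together with Mcm10, Cdc45 and the GINS complex (Gins1 to Gins4), turns the loaded ring into a working helicase. DNA polymerase alpha with primase starts each strand, polymerases delta and epsilon extend it on the clamp Pcna, and Fen1 and Lig1 join the lagging strand pieces. Many of these genes are transcribed at the G1 to S transition under E2F transcription factors.

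On the arrays, 50.6% to 56.6% of spots were well above background, and precision is limited by how many arrays there were. All 8 arrays lay on 1 slide, with cells without IL-7 in one column and cells with IL-7 in the other, and constructs in different rows, so slide position cannot be told apart from IL-7 or construct. All 11 pre-B markers were well above background on every array. They include Blnk, the gene for SLP-65, which this line lacks, and its probe lay at log2 levels of 7.16 to 8.24. Of the markers of other cells, 4 of 5 plasma cell genes, 2 of 5 T cell genes, 3 of 6 myeloid genes, 3 of 4 NK cell genes and 1 of 4 fibroblast genes were well above background on every array. Among those above it were the myeloid marker Itgam (3.58 to 4.71) and the T cell markers Cd3e (0.81 to 1.30) and Cd4 (1.06 to 1.6). The NK cell markers Klrb1c, Nkg7 and Gzma were also above it, Gzma at a low level (-4.39 to -3.93). Cd3g, Ncr1, Col1a1, Col3a1 and Pdgfra were not well above background on any array. Scrambled cells without IL-7 replicate 2 stood below replicate 1 in 45 of the 48 replication genes, by a median of 0.39 log2 units, while 49.6% of all genes were lower in replicate 2 and the median over all genes was 0. In the other groups replicate 2 was the lower one for 39 genes in sponge cells without IL-7 (53% of all genes), 12 in sponge cells with IL-7 (37.8%) and 33 in scrambled cells with IL-7 (53.6%).

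The 6 microRNAs of the miR-15 family, which the sponge was designed to bind, are shown because they define the treatment. For miR-195 and miR-497 the table's miR-195a and miR-497a are given. The mature forms are given in RNA letters from RefSeq on GRCm38.p6, with the seed, bases 2 to 8, in capitals, and all 6 share 1 seed.
miR-15a-5p: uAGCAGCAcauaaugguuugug
miR-15b-5p: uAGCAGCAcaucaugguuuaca
miR-16-5p: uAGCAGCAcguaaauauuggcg
miR-195a-5p: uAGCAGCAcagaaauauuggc
miR-322-5p: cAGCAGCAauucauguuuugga
miR-497a-5p: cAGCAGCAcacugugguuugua

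Promoter sequence is shown for 7 genes because most replication genes moved together: 5 genes with E2F letters that fell, and Orc4, which rose, and Dut, which fell, both without them. Each run is the 180 bases before the start site in RefSeq on GRCm38.p6, read 5′ to 3′ on the gene's own strand, with matches to the E2F letters TTTCCCGC, TTTGGCGC, TTTCGCGC or TTTGCCGC on either strand in capitals. Where matches overlap, the capitals run together, as in Mcm5 and Mcm6. Where a gene had several listed start sites, the first listed with the letters was taken, or the first listed if none had them. Orc4 had several, and none of their windows held the letters.
Orc1, chr4:108579274-108579453, plus strand: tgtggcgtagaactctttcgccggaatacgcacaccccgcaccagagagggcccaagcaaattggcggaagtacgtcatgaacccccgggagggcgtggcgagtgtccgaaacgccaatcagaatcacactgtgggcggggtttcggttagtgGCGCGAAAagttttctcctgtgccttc
Orc4, chr2:48950082-48950261, minus strand: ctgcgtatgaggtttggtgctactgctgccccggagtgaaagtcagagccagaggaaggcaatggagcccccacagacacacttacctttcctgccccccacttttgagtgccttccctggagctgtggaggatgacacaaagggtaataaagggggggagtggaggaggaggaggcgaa
Cdc6, chr11:98907971-98908150, plus strand: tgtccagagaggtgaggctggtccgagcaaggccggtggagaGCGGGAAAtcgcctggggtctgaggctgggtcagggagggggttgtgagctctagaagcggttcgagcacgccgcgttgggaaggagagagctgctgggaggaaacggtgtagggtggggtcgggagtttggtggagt
Mcm5, chr8:75109329-75109508, plus strand: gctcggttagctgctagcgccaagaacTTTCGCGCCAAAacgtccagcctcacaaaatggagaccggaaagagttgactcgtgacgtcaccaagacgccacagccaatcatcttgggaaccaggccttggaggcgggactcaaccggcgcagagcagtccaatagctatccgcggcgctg
Mcm6, chr1:128359706-128359885, minus strand: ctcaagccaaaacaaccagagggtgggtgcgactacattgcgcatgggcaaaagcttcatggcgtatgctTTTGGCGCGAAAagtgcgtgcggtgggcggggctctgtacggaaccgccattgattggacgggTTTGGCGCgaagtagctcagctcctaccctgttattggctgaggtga
Pola1, chrX:93632156-93632335, minus strand: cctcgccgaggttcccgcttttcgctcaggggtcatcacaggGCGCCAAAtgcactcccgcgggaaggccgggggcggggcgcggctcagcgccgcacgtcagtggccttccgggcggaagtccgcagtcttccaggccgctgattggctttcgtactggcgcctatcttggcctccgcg
Dut, chr2:125247335-125247514, plus strand: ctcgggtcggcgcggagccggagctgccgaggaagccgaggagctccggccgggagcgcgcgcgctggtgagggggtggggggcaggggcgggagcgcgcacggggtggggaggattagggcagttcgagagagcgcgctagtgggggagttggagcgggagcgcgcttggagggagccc

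In windows from 250 bases before the start site to 50 after it, these E2F letters were present in 15 of the 40 replication genes with a window, or 37.5%, against 2.60% of 27025 genes. By function, the letters were in 4 of 5 MCM subunits, 2 of 2 licensing factors, 4 of 7 polymerase and primase genes, 2 of 6 origin recognition genes and 0 of 5 dNTP genes. One of the 5 helicase activation genes, 1 of 8 clamp, loader and RPA genes and 1 of 2 Okazaki genes also held them. The pentamer CCAAT, searched on both strands, was in 57.5% of the replication genes and 41.1% of all genes, and TTTGAA in 17.5% and 20.2%. A match is a description of the letters and not a binding site. Only exact matches within these windows were searched, so a gene without one may still have an E2F site. Orc3, which was not called in any comparison, and Gins3, which fell by 0.87 in scrambled cells, held the letters too. On IL-7 withdrawal in scrambled cells the median change was -2.40 over the 15 genes with the letters and -1.87 over the 25 without. The ranges overlapped, at -3.05 to -0.17 with the letters and -2.78 to 0.63 without, and 14 of 15 and 23 of 25 genes were called lower.

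The first question was how replication genes respond when IL-7 is withdrawn, in miR-15 sponge cells and in scrambled sponge cells. They fell in both, by much more in scrambled cells. In miR-15 sponge cells 30 of 48 fell and 0 rose at an adjusted p under 0.05 (limma, Benjamini-Hochberg over all genes), against 15.2% of all genes lower and 7.92% higher. In scrambled cells 44 fell, 1 rose and 3 were not called, against 27.4% of all genes lower and 20.7% higher. The median log2 change was -0.69 in sponge cells and -2.08 in scrambled cells, where the medians of all genes were -0.06 and -0.02. In sponge cells the count of 30 became 16, with a median of -0.43, under quantile normalization and in the authors' deposited values, and between 6 and 15 when any 1 sponge array was left out. The medians correspond to 61.9% of the signal with IL-7 remaining in sponge cells and 23.6% in scrambled cells. All values are log2 of the array signal relative to the array's 75th percentile, so a level of 0 is that percentile. In each construct the arrays without IL-7 all lay below those with IL-7 for 46 of the 48 genes and above them for 1, against 40.3% and 25.7% of all genes in sponge cells and 39.8% and 35.2% in scrambled cells. RNA of a bulk culture cannot tell fewer replicating cells from less RNA per cell.

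**Figure D1:**
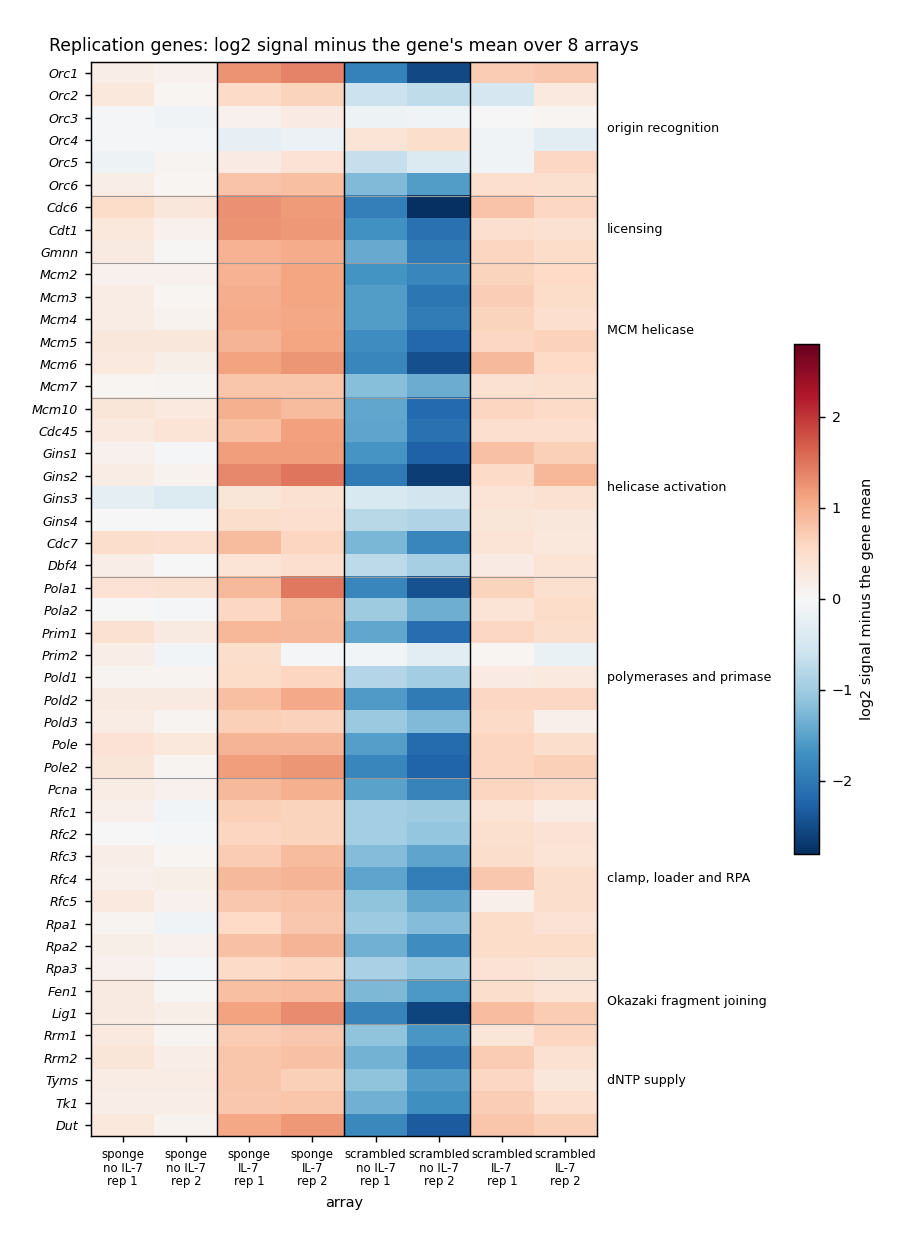
Each row is 1 of 48 replication genes and each column 1 of 8 arrays, and colour gives the log2 signal minus that gene's mean over the 8 arrays. Both scrambled arrays without IL-7 are blue for most genes, the sponge arrays without IL-7 lie near the mean, and Orc4 runs the other way.

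The origin recognition complex did not move as a unit. Orc1, its ATPase subunit whose level follows the cell cycle, had levels of -1.74 and -1.81 in sponge cells without IL-7, -0.66 and -0.54 in sponge cells with IL-7, -3.81 and -4.45 in scrambled cells without IL-7, and -1.20 and -1.16 in scrambled cells with IL-7. The 4 groups did not overlap, and the scrambled arrays without IL-7 were the lowest. Orc1 fell by 1.18 ± 0.20 on withdrawal in sponge cells (SE, n = 2 arrays per group, limma adjusted p = 0.0123) and by 2.95 ± 0.20 in scrambled cells (adjusted p = 0.000321 by limma). Orc6 had levels of 4.38 and 4.25 in sponge cells without IL-7, 5.0 and 5.05 in sponge cells with IL-7, 2.97 and 2.63 in scrambled cells without IL-7, and 4.67 and 4.65 in scrambled cells with IL-7. It fell by 0.71 ± 0.12 in sponge cells and by 1.86 ± 0.12 in scrambled cells, in the same order of groups as Orc1.

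Of the other 4 subunits, Orc4 rose in scrambled cells, Orc5 fell there, and Orc2 and Orc3 were not called. Orc4, another AAA+ subunit of the complex, had levels of 0.15 and 0.12 in sponge cells without IL-7, -0.05 and 0.01 in sponge cells with IL-7, 0.56 and 0.68 in scrambled cells without IL-7, and 0.09 and -0.11 in scrambled cells with IL-7. It was highest in scrambled cells without IL-7, where it rose by 0.63 ± 0.09 on withdrawal (limma adjusted p = 0.00299), and its value in sponge cells was 0.16 (adjusted p = 0.276). Its second probe gave 0.33 on withdrawal in scrambled cells. Orc3 had levels of 3.21 and 3.17 in sponge cells without IL-7, 3.39 and 3.49 in sponge cells with IL-7, 3.12 and 3.16 in scrambled cells without IL-7, and 3.29 and 3.32 in scrambled cells with IL-7. Its arrays without IL-7 all lay below its arrays with IL-7, yet the change was only -0.25 in sponge cells and -0.17 in scrambled cells, and neither was called (limma adjusted p = 0.0558 and 0.0998).

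Orc2 and Orc5 were the subunits with the widest spread between replicates. Orc2 had levels of 0.51 and 0.28 in sponge cells without IL-7, 0.77 and 0.84 in sponge cells with IL-7, -0.37 and -0.49 in scrambled cells without IL-7, and -0.24 and 0.49 in scrambled cells with IL-7. Its change was -0.41 in sponge cells (95% interval -1.0 to 0.18) and -0.55 in scrambled cells (95% interval -1.14 to 0.04), and neither was called. Without scrambled cells with IL-7 replicate 1 the scrambled change of Orc2 was -0.92 and called (limma adjusted p = 0.00543), and without replicate 2 it was -0.18. Orc5 had levels of -0.46 and -0.25 in sponge cells without IL-7, -0.09 and 0.08 in sponge cells with IL-7, -0.96 and -0.74 in scrambled cells without IL-7, and -0.43 and 0.25 in scrambled cells with IL-7. Orc5 fell by 0.76 ± 0.23 in scrambled cells (limma adjusted p = 0.0393), a call that was lost without any single array other than scrambled with IL-7 replicate 1, with adjusted p between 0.0613 and 0.162. In sponge cells its change was -0.35 (adjusted p = 0.335).

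All 3 licensing factors fell in scrambled cells, and Cdt1 and Gmnn also in sponge cells. Cdc6, the ATPase that loads the MCM ring with Cdt1, had levels of 1.71 and 1.52 in sponge cells without IL-7, 2.49 and 2.40 in sponge cells with IL-7, -0.72 and -1.58 in scrambled cells without IL-7, and 2.00 and 1.79 in scrambled cells with IL-7. In scrambled cells it fell by 3.05 ± 0.27 (limma adjusted p = 0.000563), to 12.1% of its signal with IL-7. In sponge cells the change was -0.83 ± 0.27 and not called (adjusted p = 0.0818), although the 2 arrays without IL-7 lay below the 2 with it. Gmnn, the inhibitor of Cdt1, had levels of 2.66 and 2.44 in sponge cells without IL-7, 3.38 and 3.44 in sponge cells with IL-7, 1.00 and 0.42 in scrambled cells without IL-7, and 3.01 and 2.92 in scrambled cells with IL-7. Gmnn fell by 0.86 ± 0.20 in sponge cells and by 2.25 ± 0.20 in scrambled cells, and Cdt1 by 1.03 ± 0.14 and 2.32 ± 0.14. Cdt1 and its inhibitor fell by similar amounts within each construct.

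All 6 MCM subunits fell in both constructs, the only group of more than 2 genes called throughout. The sponge changes lay between -0.97 (Mcm6) and -0.72 (Mcm5), and the scrambled changes between -2.87 (Mcm6) and -1.73 (Mcm7). Mcm6 had levels of 6.70 and 6.61 in sponge cells without IL-7, 7.56 and 7.68 in sponge cells with IL-7, 4.62 and 3.98 in scrambled cells without IL-7, and 7.35 and 7.0 in scrambled cells with IL-7. Mcm7, the MCM gene that fell least in scrambled cells, had levels of 6.24 and 6.25 in sponge cells without IL-7, 6.97 and 6.97 in sponge cells with IL-7, 4.99 and 4.80 in scrambled cells without IL-7, and 6.61 and 6.64 in scrambled cells with IL-7. For both, the scrambled arrays without IL-7 were the lowest 2 and no groups overlapped. Mcm6 fell by 0.97 ± 0.23 in sponge cells (limma adjusted p = 0.0315) and by 2.87 ± 0.23 in scrambled cells (adjusted p = 0.000422).

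Among helicase activation genes, the calls in sponge cells set the GINS complex apart, but the sizes of the changes did not. All 8 were called lower in scrambled cells and 4 of 8 in sponge cells, the 4 GINS subunits. Gins2 had levels of 2.47 and 2.38 in sponge cells without IL-7, 3.62 and 3.76 in sponge cells with IL-7, 0.29 and -0.37 in scrambled cells without IL-7, and 2.81 and 3.21 in scrambled cells with IL-7. Its falls, 1.26 ± 0.24 in sponge cells (limma adjusted p = 0.0171) and 3.05 ± 0.24 in scrambled cells (adjusted p = 0.000423), were the largest of the complex. Gins3 had levels of 4.44 and 4.30 in sponge cells without IL-7, 5.03 and 5.10 in sponge cells with IL-7, 4.26 and 4.17 in scrambled cells without IL-7, and 5.07 and 5.10 in scrambled cells with IL-7. Here the constructs hardly differed, and Gins3 fell by 0.70 ± 0.08 in sponge cells and by 0.87 ± 0.08 in scrambled cells. Gins1 fell by 1.12 and 2.69, and Gins4 by 0.48 and 1.13, in sponge and scrambled cells in that order. The kinase Cdc7 and its activator Dbf4 changed by -0.26 and -0.33 in sponge cells, neither of them called, and fell by 1.89 and 1.14 in scrambled cells. Mcm10 and Cdc45 were at -0.63 and -0.67 in sponge cells, not called, and fell by 2.38 and 2.25 in scrambled cells. Both of these sponge changes were larger in size than that of Gins4, which was called.

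Among polymerase and primase genes, 4 of 9 fell in sponge cells and 8 of 9 in scrambled cells. Pole2, a subunit of polymerase epsilon, had levels of 1.6 and 1.33 in sponge cells without IL-7, 2.42 and 2.48 in sponge cells with IL-7, -0.57 and -0.99 in scrambled cells without IL-7, and 1.85 and 1.92 in scrambled cells with IL-7. It fell by 0.99 ± 0.16 in sponge cells (limma adjusted p = 0.0105) and by 2.67 ± 0.16 in scrambled cells (adjusted p = 0.000271). The catalytic subunits of the other replicative polymerases lay further apart, with Pola1 at -0.78 in sponge cells, not called, and -2.66 in scrambled cells, and Pold1 at -0.48 and -1.14, both called. Prim2, the large primase subunit, had levels of -0.14 and -0.41 in sponge cells without IL-7, 0.17 and -0.38 in sponge cells with IL-7, -0.40 and -0.63 in scrambled cells without IL-7, and -0.28 and -0.52 in scrambled cells with IL-7. All 4 groups of Prim2 overlapped or nearly did, with changes of -0.17 in sponge cells (95% interval -0.70 to 0.36) and -0.11 in scrambled cells (95% interval -0.64 to 0.42), while its partner Prim1 fell by 2.34 in scrambled cells. A second Prim2 probe, dimmer on average, gave -0.73 and -1.96, so the 2 probes of this gene disagree.

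The clamp, its loader and RPA, which coats single-stranded DNA, fell in 8 of 9 genes in sponge cells and 9 of 9 in scrambled cells. Rfc4, a small subunit of the loader, had levels of 4.64 and 4.65 in sponge cells without IL-7, 5.41 and 5.45 in sponge cells with IL-7, 3.03 and 2.57 in scrambled cells without IL-7, and 5.24 and 4.98 in scrambled cells with IL-7. Rfc1, the large subunit, had levels of 4.72 and 4.50 in sponge cells without IL-7, 5.25 and 5.19 in sponge cells with IL-7, 3.63 and 3.58 in scrambled cells without IL-7, and 4.96 and 4.78 in scrambled cells with IL-7. Both kept the order of groups seen for Orc1, with a smaller distance for Rfc1. Rfc4 fell by 0.79 ± 0.17 in sponge cells and by 2.31 ± 0.17 in scrambled cells, and Rfc1 by 0.61 ± 0.11 and 1.26 ± 0.11. Pcna fell by 0.79 ± 0.13 and 2.25 ± 0.13. Rfc5 was the exception in sponge cells (-0.58, limma adjusted p = 0.0522). The 3 RPA genes fell by 0.53 to 0.74 in sponge cells and by 1.36 to 2.06 in scrambled cells.

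The 2 Okazaki genes fell in both constructs. Lig1, the ligase that seals the fragments, had levels of 5.99 and 5.89 in sponge cells without IL-7, 6.86 and 7.06 in sponge cells with IL-7, 3.86 and 3.17 in scrambled cells without IL-7, and 6.60 and 6.45 in scrambled cells with IL-7. Fen1, the flap nuclease, had levels of 5.56 and 5.35 in sponge cells without IL-7, 6.15 and 6.19 in sponge cells with IL-7, 4.06 and 3.72 in scrambled cells without IL-7, and 5.81 and 5.71 in scrambled cells with IL-7. In scrambled cells Lig1 retained 12.4% of its signal with IL-7 and Fen1 27.4%. Lig1 fell by 1.02 ± 0.23 in sponge cells (limma adjusted p = 0.0267) and by 3.01 ± 0.23 in scrambled cells (adjusted p = 0.000375), and Fen1 by 0.71 ± 0.14 and 1.87 ± 0.14.

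The 5 dNTP genes fell in scrambled cells, and 2 of them, Dut and Tk1, in sponge cells. Dut, which removes dUTP and feeds thymidylate synthesis, had levels of 3.95 and 3.74 in sponge cells without IL-7, 4.73 and 4.86 in sponge cells with IL-7, 1.84 and 1.32 in scrambled cells without IL-7, and 4.42 and 4.31 in scrambled cells with IL-7. Tyms, thymidylate synthase, had levels of -0.42 and -0.41 in sponge cells without IL-7, 0.15 and 0.05 in sponge cells with IL-7, -1.75 and -2.21 in scrambled cells without IL-7, and -0.04 and -0.31 in scrambled cells with IL-7. The sponge arrays without IL-7 lay just below the scrambled arrays with IL-7 for Tyms and further below them for Dut. Dut fell by 0.95 ± 0.18 in sponge cells (limma adjusted p = 0.0169) and by 2.78 ± 0.18 in scrambled cells (adjusted p = 0.000301). Tyms was at -0.51 ± 0.17 in sponge cells and not called (adjusted p = 0.0831), and fell by 1.81 ± 0.17 in scrambled cells (limma adjusted p = 0.000637). The ribonucleotide reductase subunits Rrm1 and Rrm2 were at -0.55 and -0.54 in sponge cells, not called, and fell by 1.83 and 2.19 in scrambled cells.

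**Figure D2:**
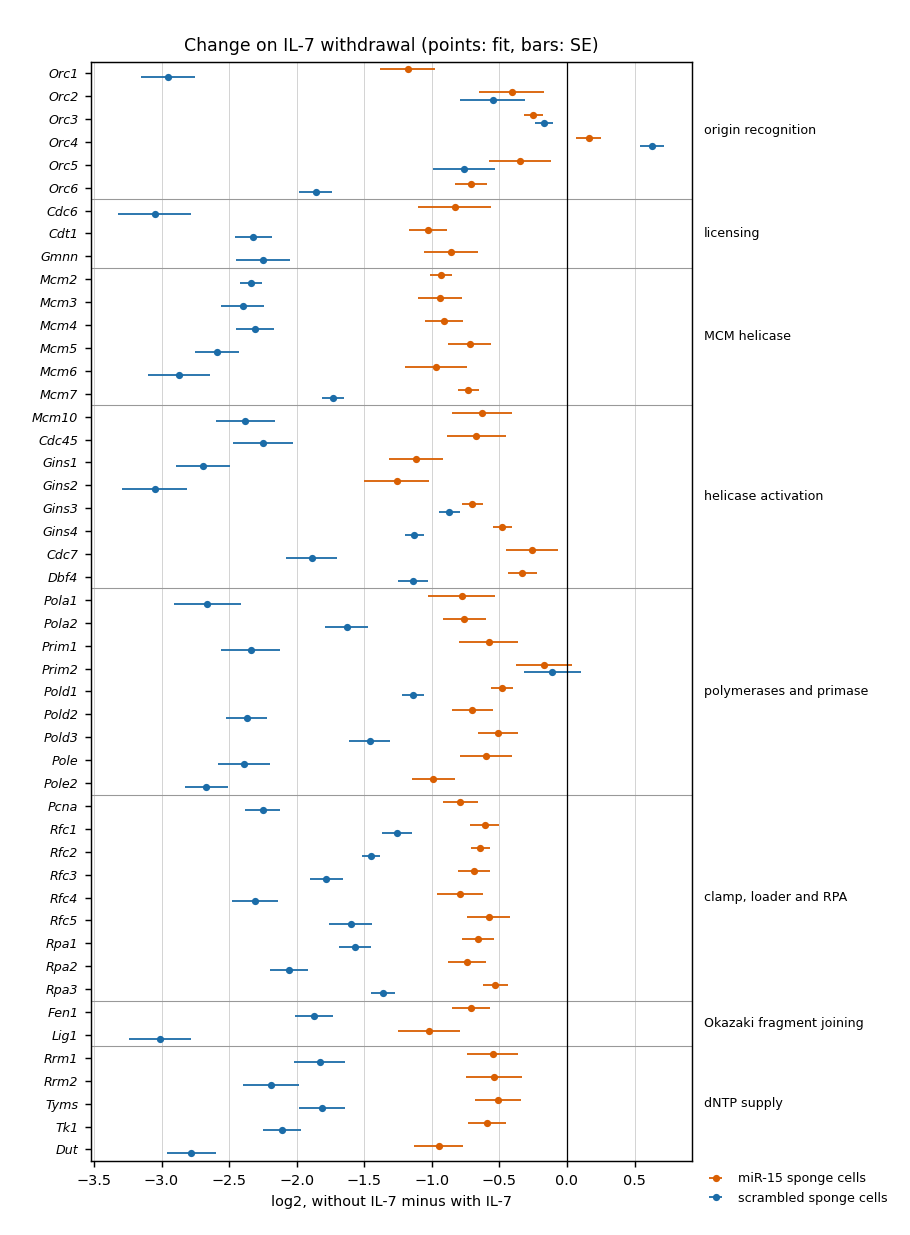
Points are log2 changes on IL-7 withdrawal (horizontal axis, without minus with IL-7) with their SE for each of 48 replication genes, orange for miR-15 sponge cells and blue for scrambled cells. The blue points lie left of the orange ones for all 44 genes that fell in scrambled cells, most closely for Gins3.

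Side by side, the median changes in sponge and scrambled cells were -0.38 and -0.66 for origin recognition, -0.86 and -2.32 for licensing, -0.92 and -2.37 for the MCM helicase and -0.65 and -2.07 for helicase activation. They were -0.60 and -2.34 for polymerases and primase, -0.66 and -1.6 for clamp, loader and RPA, -0.86 and -2.44 for Okazaki joining and -0.55 and -2.11 for dNTP supply. With quantile normalization the sponge medians were nearer to 0, at -0.55 for MCM, -0.36 for clamp, loader and RPA, -0.52 for Okazaki joining and -0.32 for dNTP supply. The scrambled origin recognition median ran from -1.01 without scrambled with IL-7 replicate 1 to -0.30 without replicate 2 of that group. No test was made between these groups of genes. Of the 44 genes that fell in scrambled cells, each had a smaller log2 change in sponge cells, with a median ratio of sponge to scrambled change of 0.366, from 0.138 (Cdc7) to 0.798 (Gins3). By function, this ratio was lowest for dNTP supply (0.284) and highest for the 3 origin recognition genes that fell (0.399). Across the 48 genes the changes in the 2 constructs, which share no array, had a Pearson's r of 0.845 and a Spearman's rho of 0.802. That is a description over genes that are not independent, measured on the same probes.

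**Figure D3:**
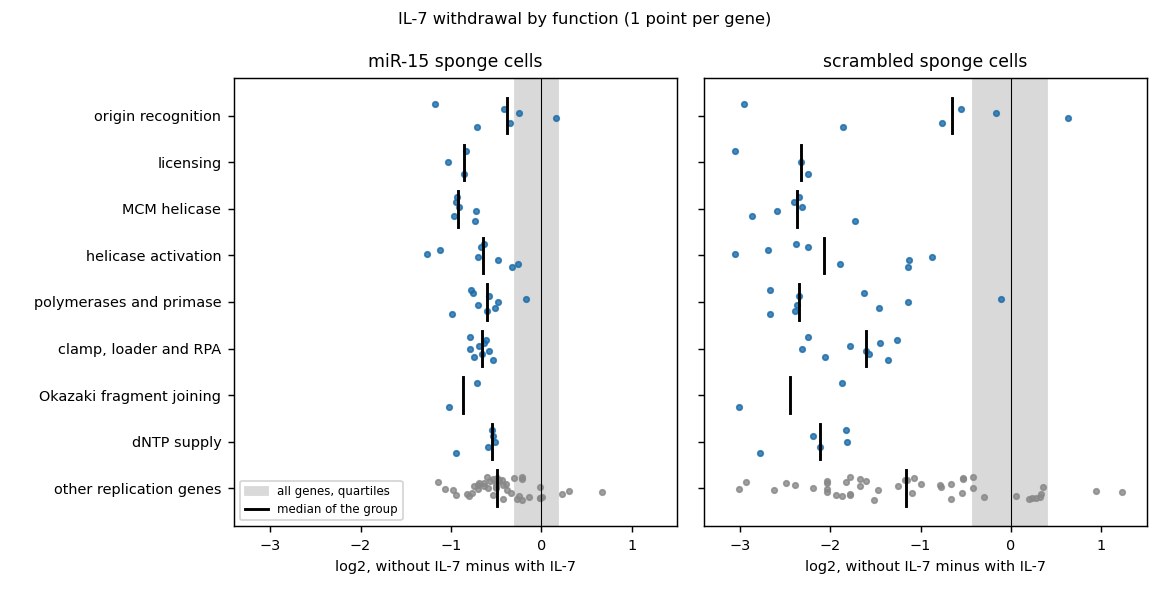
Each point is 1 gene's log2 change on IL-7 withdrawal in miR-15 sponge cells (left) and scrambled cells (right), by function, with a bar at the median, grey points for other replication genes and grey shading for the quartiles of all genes. Most functions lie left of the shading in both panels, and origin recognition spreads from Orc1 at -2.95 to Orc4 at 0.63 in scrambled cells.

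The second question was how the miR-15 sponge alters replication genes at a given IL-7 state. Without IL-7, 43 of 48 were higher in sponge than in scrambled cells, 1 was lower (Orc4, -0.48) and 4 were not called (Orc3, Orc5, Gins3, Prim2), where 16.8% of all genes were higher and 15.3% lower. The median difference was 1.78, against -0.05 over all genes. The arrays of the constructs did not overlap for 46 genes higher in sponge cells and 1 lower, against 32.4% and 40.3% of all genes. The largest were Cdc6 (2.76 ± 0.27, limma adjusted p = 0.00155), Pola1 (2.55 ± 0.25), Gins2 (2.46 ± 0.24) and Lig1 (2.43 ± 0.23), each lower in both scrambled arrays than in either sponge array. Pola1, the catalytic subunit of polymerase alpha, had levels of 3.2 and 3.21 in sponge cells without IL-7, 3.71 and 4.26 in sponge cells with IL-7, 0.96 and 0.36 in scrambled cells without IL-7, and 3.41 and 3.23 in scrambled cells with IL-7. Its sponge arrays without IL-7 thus lay close to its scrambled arrays with IL-7. Orc2 was called without IL-7 (0.82, limma adjusted p = 0.046) but not with the replicate as a block (adjusted p = 0.0659), with normexp (0.0827), with the percentile over bright probes (0.0539), with no filter on dim probes (0.0974), or without any single array other than the scrambled arrays with IL-7 (0.075 to 0.185). Orc4 was not called without scrambled without IL-7 replicate 2 (-0.42, limma adjusted p = 0.0814) or without either sponge array without IL-7.

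With IL-7 present the sponge gave 0 called replication genes, where 0.314% of all genes were called higher and 0.816% lower. The values were nevertheless above 0 in 46 of 48 genes, against 10977 of all 21320 genes. Their median was 0.37 against 0.01 over all genes. An unadjusted limma p under 0.05 was found for 20 of the 48 and for 4147 of the 21320. Cdt1 had the largest difference and the smallest p (0.80 ± 0.14, limma adjusted p = 0.0695). Its levels were 6.12 and 6.09 in sponge cells with IL-7, against 5.33 and 5.29 in scrambled cells with IL-7. The arrays of the constructs did not overlap for 44 of the 48 genes, all higher in sponge cells, where 27.3% of all genes were likewise higher and 23.3% lower. Prim2, Orc5, Orc4 and Gins3 were those that overlapped. The number called became 2 with normexp background correction (Mcm2 and Mcm4), 1 with the stricter filter on dim probes (Cdt1) and 1 without scrambled with IL-7 replicate 2 (Orc2).

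**Figure D4:**
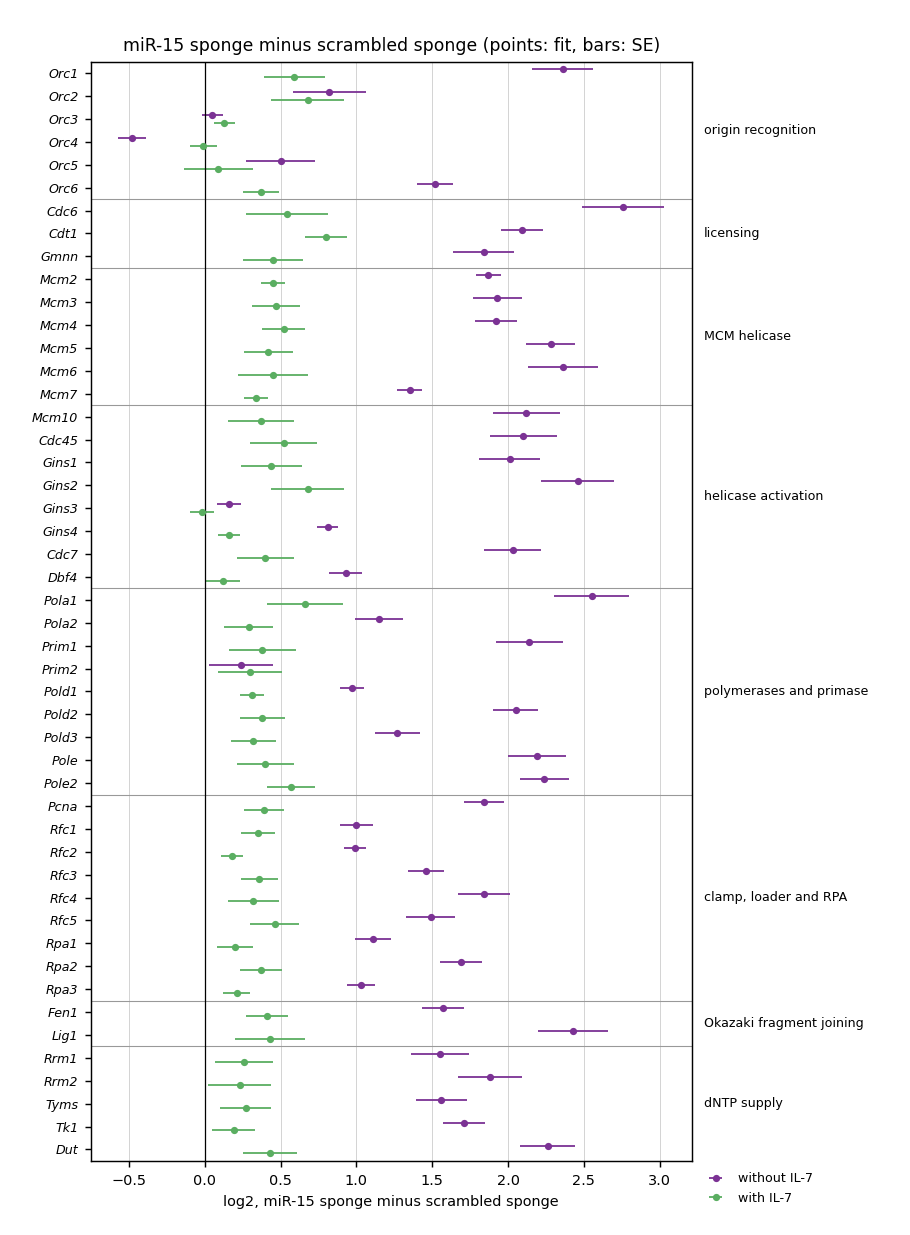
Points are log2 differences between miR-15 sponge and scrambled cells (horizontal axis, sponge minus scrambled) with their SE for each of 48 replication genes, purple without IL-7 and green with IL-7. Green points lie between -0.02 and 0.80 and purple points between -0.48 (Orc4) and 2.76 (Cdc6).

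Set in one order, 40 of the 48 genes (83.3%) ran from sponge with IL-7 through scrambled with IL-7 and sponge without IL-7 to scrambled without IL-7, highest to lowest, with no overlap between neighbouring groups. Of all genes, 7.99% did. The test of the difference between the withdrawal changes, sponge minus scrambled, called 36 of 48 genes higher and 0 lower, where 4.32% of all genes were higher and 0.952% lower. The median difference was 1.35, against -0.04 over all genes. The largest were Cdc6 (2.22 ± 0.39, limma adjusted p = 0.0387), Lig1 (2.00 ± 0.32), Mcm6 (1.91 ± 0.32) and Pola1 (1.89 ± 0.36). By function it was called in 2 of 6 origin recognition genes, 2 of 3 licensing factors, 6 of 6 MCM subunits, 7 of 8 helicase activation genes, 6 of 9 polymerase and primase genes, 7 of 9 clamp, loader and RPA genes, 2 of 2 Okazaki genes and 4 of 5 dNTP genes.

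These 36 calls sat close to the threshold, at adjusted p from 0.0306 to 0.0484. With the replicate as a block the count was 0 of 48 (smallest limma adjusted p = 0.0508), while 43 had an unadjusted p under 0.05 with and without the block. Over all genes, 4944 of 21320 had an unadjusted limma p under 0.05 without the block. Leaving out 1 array gave 0 calls for 6 of the 8 arrays, 28 without scrambled with IL-7 replicate 2 and 34 without scrambled without IL-7 replicate 1. Within each experiment the difference was above 0 for 44 of 48 genes in both, against 31.8% of all genes, with medians of 1.24 in replicate 1 and 1.45 in replicate 2.

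Replication genes outside the 48 had smaller median changes. Of 46 such genes, taken from a fixed list, 26 fell and 1 rose in sponge cells (median -0.49), where 15.2% of all genes fell and 7.92% rose. In scrambled cells 36 fell and 5 rose (median -1.16), where 27.4% of all genes fell and 20.7% rose. Without IL-7, 32 were higher and 7 lower in sponge than in scrambled cells (median 1.05), against 16.8% and 15.3% of all genes. With IL-7 0 were called. There 22 had an unadjusted limma p under 0.05, against 4147 of all 21320 genes. The largest falls in scrambled cells were those of Dscc1, a subunit of an alternative clamp loader (-3.01), the fork protection factor Timeless (-2.93), Dtl, which directs Cdt1 to degradation (-2.62), and the checkpoint mediator Clspn (-2.49). The smallest values there were Cad (0.05), Poln (0.20), the mitochondrial helicase Twnk (0.23) and the mitochondrial polymerase subunit Polg2 (0.28), none of them called.

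Paralogs and partners of the 48 genes were also measured. On withdrawal Mcm8 fell by 0.60 in sponge cells and by 1.78 in scrambled cells, while Mcm9, its partner in recombination, was at -0.22, not called, and -0.42, called. The small polymerase subunits Pold4, Pole3 and Pole4 fell by 0.66, 1.00 and 0.78 in scrambled cells. Rrm2b, the p53-inducible reductase subunit, was at 0.30 in sponge cells, not called, and rose by 0.94 ± 0.12 in scrambled cells (limma adjusted p = 0.00182), against the fall of Rrm2. Tk2, the mitochondrial thymidine kinase, was at 0.23 in sponge cells, not called, and rose by 0.33 in scrambled cells, against the fall of Tk1. Samhd1, which degrades dNTPs, had levels of 1.73 and 1.69 in sponge cells without IL-7, 1.06 and 1.03 in sponge cells with IL-7, 2.39 and 2.69 in scrambled cells without IL-7, and 1.25 and 1.37 in scrambled cells with IL-7. It rose in both constructs, by 0.67 ± 0.11 in sponge cells and by 1.23 ± 0.11 in scrambled cells.

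Marker lists of dividing and of B lineage cells were also followed in these comparisons. Of 6 proliferation genes outside replication (Mki67, Top2a, Ccnb1, Cdk1, Bub1, Plk1), 1 fell in sponge cells (median -0.35). This count is near the share of all genes that fell there, 15.2%. In scrambled cells 6 fell (median -1.46), where 27.4% of all genes did. Without IL-7 all 6 were higher in sponge than in scrambled cells (median 1.23), against 16.8% of all genes. Linear signals were also summed over each list, a sum in which the brightest genes weigh most. The log2 of this summed signal for the proliferation genes was 8.63 to 8.65 in sponge cells without IL-7, 8.89 to 8.91 in sponge cells with IL-7, 7.46 to 7.79 in scrambled cells without IL-7, and 8.71 to 8.83 in scrambled cells with IL-7. Of 11 pre-B markers, 5 rose and 1 fell on withdrawal in sponge cells (median 0.25), where 7.92% of all genes rose and 15.2% fell. In scrambled cells 6 rose and 1 fell (median 0.40), where 20.7% of all genes rose and 27.4% fell. Blnk, which encodes the SLP-65 that the line lacks, was 1 of those that rose in each construct (0.51 and 0.73). Rag1, needed for antibody gene rearrangement, rose by 3.43 in sponge cells and by 3.59 in scrambled cells. Its level was lower in sponge than in scrambled cells with IL-7 (-2.39, limma adjusted p = 0.0253) and without it (-2.56, limma adjusted p = 0.00173). Without IL-7, 6 of the 11 were lower in sponge than in scrambled cells (median -0.39), against 15.3% of all genes. Blnk was 1 of them (-0.55), and it also enters the summed signal. The log2 of the summed signal of the pre-B list was 10.60 to 10.61 in sponge cells without IL-7, 10.51 to 10.67 in sponge cells with IL-7, 10.88 to 10.91 in scrambled cells without IL-7, and 10.69 to 10.74 in scrambled cells with IL-7. Of 5 plasma cell genes, 2 rose and 1 fell in sponge cells (median 0.26), where 7.92% of all genes rose and 15.2% fell. In scrambled cells 4 rose and 1 fell (median 1.20), where 20.7% of all genes rose and 27.4% fell. One of these 4, Jchain (1.32), was well above background on 0 arrays with IL-7. The transcription factors Irf4 and Prdm1 rose by 0.94 and 1.09 in sponge cells and by 1.20 and 1.36 in scrambled cells, and Sdc1, which encodes the surface proteoglycan CD138, fell by 0.59 and 1.79. The log2 of the summed signal of the plasma cell list was 5.07 to 5.08 in sponge cells without IL-7, 4.41 to 4.46 in sponge cells with IL-7, 5.22 to 5.34 in scrambled cells without IL-7, and 4.35 to 4.49 in scrambled cells with IL-7. The share of dividing cells was not measured, and the part of these markers in the result was not tested.

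More than 1 probe was kept for 13 of the 48 genes. In 9 of them the probes lay within 1 log2 unit of each other on withdrawal in scrambled cells. For Pole the probe used gave -2.39 and the others -3.71 and 0.04, for Prim2 the values were -0.11 and -1.96, for Rfc5 -1.6 and -0.52, and for Tk1 -2.11, -2.46 and -1.09, the last from a probe well above background on 5 of 8 arrays. Between constructs without IL-7 the probe used for Pole gave 2.19 and the others 3.07 and 0.13. In the same comparison the values were 0.24 and 1.24 for Prim2, 1.49 and -0.06 for Rfc5, and 1.71, 2.01 and 0.79 for Tk1. Pole and Rfc5 were thus called higher in sponge cells by the probe used, while another probe lay near 0. With the mean over kept probes Prim2 was called in scrambled cells on withdrawal (-1.03, limma adjusted p = 0.00711). In which transcripts these probes lie was not analysed here.

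**Figure D5:**
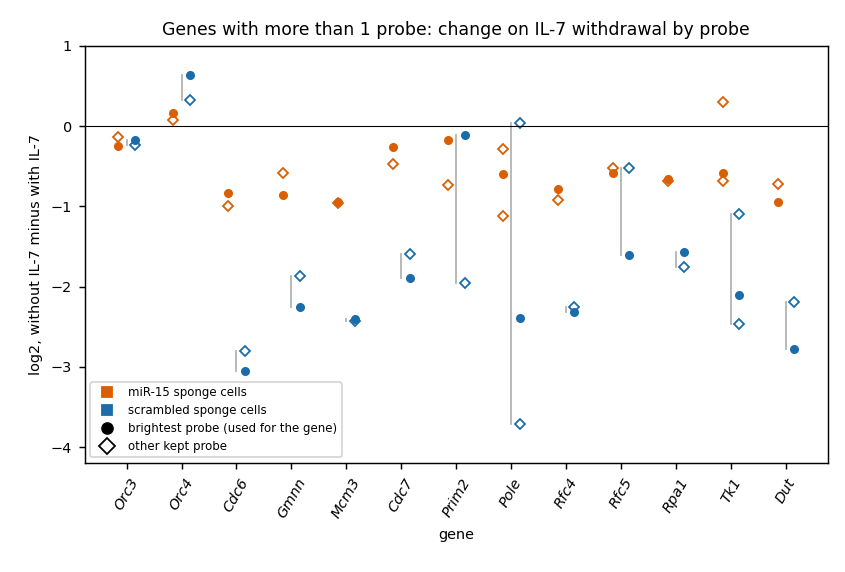
For the 13 replication genes with more than 1 kept probe, points give each probe's log2 change on IL-7 withdrawal (vertical axis), orange for miR-15 sponge cells and blue for scrambled cells, filled for the probe used and open for the others. Pole, Prim2, Tk1 and Rfc5 have blue points more than 1 log2 unit apart.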

How the data were processed

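RNA from 8 cultures was hybridised to 1-colour Agilent arrays on 1 slide. The scanner files hold intensity values that the authors deposited after background subtraction by Agilent Feature Extraction, version 10.7.1.1 per the submitters' processing notes and 10.7.3.1 per the file headers, with probe positions on mm9 per the file headers. The authors' deposited value table holds linear intensity with the same distribution on every array and was used as an alternative.

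Spots marked as outliers and control spots were left out. Signals were taken as log2 intensity relative to the array's 75th percentile and spots of a probe were averaged. Probes entered the fit when 1 group or more had them well above background on each of its arrays (30963 of 55681), and the brightest kept probe on average stood for its gene. RefSeq tables named 27235 probes by accession, 3581 by symbol and 565 by synonym, and 24300 kept the file's name. limma 3.58.1 in R 4.3.3 fitted the 4 group means to 21320 genes on all 8 arrays, with a two-sided moderated test, Benjamini-Hochberg adjustment over all genes and a threshold of 0.05. Errors beside log2 values are SE from this fit, with n = 2 arrays per group, and intervals are 95%. On simulated data the fit recovered 72%, 85.5% and 97% of withdrawal changes of 0.5, 1 and 2 log2 units in scrambled cells, and 42.5%, 73% and 94% for the difference of withdrawal effects.

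The members, gene lists and tests were chosen with earlier results of these data known. Values on each array are given for the genes with the largest and smallest change on withdrawal in scrambled cells within each function, for those not called there, and for up to 3 more per function that differed in direction or call. The sponge comparisons name the 4 called genes with the largest change, or all if 6 or fewer. Other replication genes named are the 4 with the largest and the 4 with the smallest change and paralogs or partners of members. Multi-probe genes are named where probes differed by over 1 log2 unit. The design text describes independent experiments with separate clones for each repetition, so equal replicate numbers pair the arrays, and deviations from the group means correlated by 0.0177 to 0.131 between groups. The unblocked fit was used, with the block as an alternative. Other alternatives were quantile normalization, normexp (offset 50), the percentile over bright probes, other filters on dim probes, the mean over probes, array weights and leaving out each array. Promoter and microRNA sequences are RefSeq's on GRCm38.p6 and 8 of the 48 genes had no promoter window in the table used. Sequence handling and figures used Python 3.11.15, pandas 2.3.3 and matplotlib 3.10.9. One list of markers of other cells is not reported here.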

Additional observations from a re-analysis of the deposited data

Results flagged for a closer look

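The change on IL-7 withdrawal differed between miR-15 sponge and scrambled cells for 36 replication genes, by limma's test of the difference itself (adjusted p from 0.0306 to 0.0484). Each value is the log2 change in sponge cells minus the log2 change in scrambled cells, so a positive one means a smaller fall in sponge cells. Among the origin recognition subunits the difference was called for Orc1 (1.77) and Orc6 (1.15). For the licensing factors the values were Cdc6 (2.22) and Cdt1 (1.29). All of the MCM subunits were called, Mcm6 (1.91), Mcm5 (1.86), Mcm3 (1.46), Mcm2 (1.41), Mcm4 (1.40) and Mcm7 (1.01). Of the helicase activation genes, the test called Gins2 (1.78), Mcm10 (1.75), Cdc7 (1.63), Cdc45 (1.58), Gins1 (1.57), Dbf4 (0.81) and Gins4 (0.65). It also called Pola1 (1.89), Pole (1.79), Prim1 (1.76), Pole2 (1.68), Pold2 (1.67) and Pold1 (0.66) among the polymerase and primase genes. The value for Pole depends on the probe. Its other kept probes gave -1.12 and -0.28 on withdrawal in sponge cells, and -3.71 and 0.04 in scrambled cells, in the same order. The values of the clamp, loader and RPA genes were Rfc4 (1.52), Pcna (1.46), Rpa2 (1.31), Rfc3 (1.09), Rpa1 (0.90), Rpa3 (0.82) and Rfc2 (0.81). Both of the Okazaki genes were called, Lig1 (2.00) and Fen1 (1.16). The dNTP genes called were Dut (1.83), Rrm2 (1.65), Tk1 (1.52) and Tyms (1.29). With the replicate as a block 0 of the 36 were called, and the adjusted p for them lay between 0.0508 and 0.0808. Both experiments gave a positive value for 44 of the 48 genes.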

How the results depend on the processing

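With the replicate as a block the difference of withdrawal effects was called in 0 genes (smallest limma adjusted p = 0.0508), Pold3 was called in sponge cells on withdrawal (adjusted p = 0.0319) and Orc2 was not called between constructs without IL-7 (adjusted p = 0.0659), while no other call on the 48 genes changed. That difference was also called in 0 genes with no filter on dim probes (smallest limma adjusted p = 0.0904), in 13 with array weights, and in 0 to 34 with 1 array left out. With the block, with no filter on dim probes and with array weights, 43 of the 48 had an unadjusted limma p under 0.05. In the main fit 4944 of all 21320 genes did. On withdrawal in sponge cells 16 genes were called, with a median of -0.43, under quantile normalization and in the deposited values, and 6 to 37 with 1 array left out. The sponge medians were then -0.55 and -0.56 for MCM (quantile, deposited), and in both -0.45 for activation, -0.36 for clamp, -0.52 for Okazaki and -0.32 for dNTP genes. The scrambled medians were -2.17 for MCM and -1.88 for dNTP genes in both, -1.39 and -1.40 for clamp, and -2.15 and -2.16 for Okazaki genes. Normexp background correction gave 2 calls for the sponge with IL-7 (Mcm2 0.51, Mcm4 0.72), and for activation genes medians of -1.59 on withdrawal in scrambled cells, 1.53 for the sponge without IL-7 and 1.17 for the difference. Requiring all 8 arrays above background gave 1 call with IL-7, Cdt1 (limma adjusted p = 0.0429), and 1 array left out gave 0 to 1. The percentile over bright probes gave -1.48 for clamp genes in scrambled cells. Averaging kept probes gave -2.02 for polymerase and -1.89 for dNTP genes in scrambled cells, 1.19 for clamp genes between constructs without IL-7, and 1.35 for the polymerase difference.

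Leaving out 1 array gave these ranges. On withdrawal in scrambled cells the median was -2.28 to -1.87, with origin recognition -1.01 to -0.30, MCM -2.57 to -2.22, activation -2.36 to -1.78, polymerases -2.57 to -2.0, clamp -1.77 to -1.47, Okazaki -2.70 to -2.18 and dNTP -2.30 to -1.88. Between constructs without IL-7 it was 1.53 to 1.92, with MCM 1.76 to 2.14, activation 1.73 to 2.31, clamp 1.32 to 1.58, Okazaki 1.74 to 2.25 and dNTP 1.52 to 1.90. For the difference it was 1.11 to 1.53, with licensing 1.1 to 1.68, MCM 1.29 to 1.64, activation 1.26 to 1.89, clamp 0.85 to 1.19, Okazaki 1.32 to 1.84 and dNTP 1.33 to 1.71. The origin recognition difference ran from -0.01 to 0.63, and its value of -0.01, without scrambled with IL-7 replicate 2, was the only one here that turned its direction. The cause of these shifts was not tested.

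Over all genes, the higher share of calls on withdrawal in sponge cells was 34.2%, against 51.6% with quantile normalization, 51.5% in the deposited values and 49.1% with the percentile over bright probes. The last setting also gave 55.5% against 43.1% in scrambled cells, with a shift of all genes by 0.125, and 40.8% against 52.2% between constructs without IL-7. Normexp gave 40.6% against 27.8% with IL-7.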
